A study of Mus musculus with 6 samples.

Results

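The genes described here encode the enzymes that build cholesterol and fatty acids, the SREBP factors that switch them on, and the proteins that hold back SREBP or move sterol out of the cell. A list of 36 genes was searched for among the probe sets of a mouse genome array, and a gene counted as measured where a probe set carried its symbol and no other. This gave 34 measured genes out of 18193 named on the array, with 79 probe sets in all. For Acat2 and Soat1 no such probe set was found in the annotation table used, so both are not analysed here. All 34 measured genes passed the filter on dim probe sets. Where a gene had several probe sets the brightest one stands for it, and others that gave a different call are named beside it.

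The samples were 6 pools of wild type mouse cumulus-oocyte complexes, the oocyte with its surrounding cumulus cells, each hybridised to its own array as biotin-labelled cRNA. All animals were immature females primed for 48 h with equine chorionic gonadotropin (eCG), which makes follicles grow. There were 2 arrays without human chorionic gonadotropin (hCG), the hormone that sets off ovulation, 2 arrays 8 h after hCG and 2 arrays 16 h after hCG. Per the labels' protocols, complexes without hCG were punctured out of the ovary and those of both later groups were taken from the oviduct, so place of collection and hormone cannot be told apart. Ovulation in primed mice usually comes later than 8 h, so the site given for that group is in doubt. The labels also call the complexes without hCG expanded, yet the expansion gene Tnfaip6 read 5.22 and 4.80 there on the log2 scale, 9.43 and 9.77 at 8 h and 10.53 and 10.48 at 16 h. The sources used here give neither strain nor the number of animals per pool. Nothing says that the 2 arrays of a group came from separate collections, so every p-value measures only the spread between these arrays, which may be technical.

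Cholesterol is made from acetyl-CoA by way of mevalonate, squalene and lanosterol. When sterol in the membrane of the endoplasmic reticulum runs low, SCAP carries the SREBP precursors to the Golgi for cleavage and the freed factors raise transcription of most enzymes of the route; the INSIG proteins hold SCAP back when sterol is plentiful. In the ovary the mouse oocyte makes little cholesterol of its own and relies on cumulus cells for it. Lanosterol demethylation by CYP51 yields follicular fluid meiosis-activating sterol, FF-MAS, an intermediate known to promote resumption of meiosis in cultured oocytes. Fatty acid synthesis starts from the same acetyl-CoA and takes its reducing power from NADPH.

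Because SREBP proteins bind promoters next to the factor NF-Y, the 250 bases before each start site in RefSeq (build GRCm38.p6) were searched on both strands for TCACNCC, the core of the sterol regulatory element, for CCAAT, the NF-Y box, for CACGTG, the E-box, and for GGGCGG, the Sp1 box. RefSeq promoters were found for 27 of the 34 measured genes. The sequences below were chosen to span the responses described further on. They belong to Cyp51 (chr5:4104698-4104947, minus strand), Msmo1 (chr8:64733579-64733828, minus strand) and Hmgcs1 (chr13:119690101-119690350, plus strand), which rose at 8 h, to Mvk (chr5:114444019-114444268, plus strand) and Fasn (chr11:120824548-120824797, minus strand), which were not called at 8 h and fell by 16 h, and to Tm7sf2 (chr19:6067851-6068100, minus strand), which rose only after 8 h by the calls below. Each runs 5′ to 3′ on the strand of its gene and ends at the base before the start, with matches to CCAAT and TCACNCC, or their reverse complements, in capitals.
Cyp51: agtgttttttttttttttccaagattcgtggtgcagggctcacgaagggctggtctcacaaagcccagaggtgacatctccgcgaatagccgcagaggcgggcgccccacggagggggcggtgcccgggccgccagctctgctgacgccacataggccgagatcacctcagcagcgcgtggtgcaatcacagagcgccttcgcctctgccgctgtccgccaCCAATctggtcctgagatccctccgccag
Msmo1: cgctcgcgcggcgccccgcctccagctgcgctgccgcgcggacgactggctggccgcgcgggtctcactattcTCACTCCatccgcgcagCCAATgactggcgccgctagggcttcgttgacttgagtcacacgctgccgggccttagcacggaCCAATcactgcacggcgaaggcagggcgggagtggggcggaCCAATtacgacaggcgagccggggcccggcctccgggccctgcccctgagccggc
Hmgcs1: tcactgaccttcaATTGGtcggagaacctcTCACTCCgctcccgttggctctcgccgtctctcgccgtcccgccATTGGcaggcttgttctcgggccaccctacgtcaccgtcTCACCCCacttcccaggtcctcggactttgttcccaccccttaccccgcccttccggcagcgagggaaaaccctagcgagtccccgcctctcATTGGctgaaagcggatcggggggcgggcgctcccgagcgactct
Mvk: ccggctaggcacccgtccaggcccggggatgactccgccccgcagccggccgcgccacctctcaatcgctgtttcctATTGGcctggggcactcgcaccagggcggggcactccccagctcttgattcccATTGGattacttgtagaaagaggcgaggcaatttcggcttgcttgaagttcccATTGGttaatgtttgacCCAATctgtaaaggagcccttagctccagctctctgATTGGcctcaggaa
Fasn: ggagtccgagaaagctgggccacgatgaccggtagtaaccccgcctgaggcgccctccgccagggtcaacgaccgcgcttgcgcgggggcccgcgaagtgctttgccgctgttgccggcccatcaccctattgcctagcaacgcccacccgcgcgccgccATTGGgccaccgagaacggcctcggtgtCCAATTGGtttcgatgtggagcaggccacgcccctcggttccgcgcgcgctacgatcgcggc
Tm7sf2: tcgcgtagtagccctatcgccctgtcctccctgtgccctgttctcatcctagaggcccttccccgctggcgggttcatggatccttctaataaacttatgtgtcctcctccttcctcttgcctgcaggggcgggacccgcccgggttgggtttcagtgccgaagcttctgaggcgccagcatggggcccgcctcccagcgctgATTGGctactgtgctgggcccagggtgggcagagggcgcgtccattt

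A CCAAT match lay in at least 1 listed promoter of 14 of 14 sterol synthesis genes that have one in the table, and of 21 of all 27 genes, against 39.9% of the 10914 tested genes with a promoter. Mvk held 5 such matches, and Cyp51 and Tm7sf2 held 1 each. The TCACNCC core was found for 4 of 27 genes (14.8%), Hmgcs1, Msmo1, Srebf2 and Insig2, against 16.8% of tested genes. Sp1 boxes were found for 23 of 27 genes (85.2%) against 61% of tested genes, and E-boxes for 6 of 27 (22.2%) against 9.51%. By response, CCAAT matches occurred for 8 of 10 genes that rose at 8 h and fell by 16 h, for 7 of 10 that rose and were not called afterwards, and for 6 of 7 that did not rise at 8 h. No CCAAT match overlapped a TCACNCC match in these promoters. A match is a string of letters and not a binding site, and a missing one says only that these letters are not in this window.

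Pearson's r across probe sets was between 0.991 and 0.996 within groups and between 0.943 and 0.978 across groups, and array medians ran from 6.14 to 6.27 on the log2 scale. The complexes were checked by markers of their cells. The oocyte ligand gene Gdf9 read 13.40 and 13.08 without hCG and the FSH receptor gene Fshr, of granulosa and cumulus cells, 12.26 and 12.16. Over all tested genes, 16.9% rose and 20.5% fell at 8 h, and 11.8% rose and 9.12% fell from 8 h to 16 h. Of 8 tested markers of those cells, 4 rose and 3 fell at 8 h. The rises were those of Has2, Tnfaip6, Ptx3 and Ptgs2 (3.24 to 6.24). The falls were those of Fshr, Amhr2 and Foxl2 (−1.18 to −1.89), and Inha was not called. The summed level of the 8 was 15.11 to 15.16 without hCG, 15.06 to 15.38 at 8 h and 14.61 to 14.77 at 16 h. Of 11 tested oocyte markers 11 fell at 8 h, and their summed level dropped from between 15.56 and 15.78 to between 13.39 and 13.51, with 13.63 to 13.88 at 16 h. Of 13 tested leukocyte markers 1 rose at 8 h, Csf1r (1.36 ± 0.19, adjusted p = 0.000448), with a median change of 0.08, and 12 rose between 8 h and 16 h, with a median of 1.99. Their summed level was 11.99 to 12.05 without hCG, 11.80 to 11.88 at 8 h and 13.13 to 13.17 at 16 h, and the largest contribution to this sum without hCG and at 8 h came from Laptm5, which was not called at 8 h (−0.35 ± 0.18). The summed level of oviduct epithelium markers was 11.50 to 11.65, 10.73 to 10.79 and 12.98 to 13.20 in the 3 groups, and 3 of 4 tested rose between 8 h and 16 h (Ovgp1, Cdh1 and Krt8), while the means of Foxj1, Pax8 and Wfdc2 were under the dim limit of 5.62. Of 7 tested markers of theca and stroma, 5 fell at 8 h and 4 after it, with sums of 11.65 to 11.79, 10.55 to 11.04 and 9.82 to 9.93. The summed level of endothelial markers went the way of most members, from 7.99 to 8.13 without hCG to 9.01 to 9.26 at 8 h and 9.24 to 9.26 at 16 h. Of the 2 tested endothelial markers, Cdh5 rose at 8 h (2.86 ± 0.25, adjusted p = 2.16e-05) and Kdr was not called (0.28 ± 0.15), while the means of Pecam1, Tek and Emcn were under the dim limit. The 1 tested erythrocyte marker, Alas2, was not called at 8 h (−0.68 ± 0.24). These arrays hold RNA of whole complexes, so fewer cells of a type and less RNA per cell cannot be told apart, and the part of these cell shifts in the results below was not tested.

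Changes are differences of log2 group means ± SE, with 2 arrays per group, and a change of 1 is 2-fold. Calls were made by limma at a Benjamini-Hochberg adjusted p under 0.05 over 27022 probe sets. At 8 h against no hCG, 24 of 34 genes rose and 2 fell, where 16.9% of all 13559 tested genes rose and 20.5% fell. The median change was 0.85, against −0.02 over all tested genes. From 8 h to 16 h, 3 rose and 14 fell, against backgrounds of 11.8% and 9.12%, with medians of −0.35 and 0.01. At 16 h against no hCG, 15 rose and 4 fell, against 20.8% and 20.8%, with medians of 0.34 and −0.02. In either direction, the changed genes were 26, 17 and 19 of 34, where 37.4%, 20.9% and 41.6% of all tested genes and 33.9%, 18.2% and 37.3% of all tested probe sets changed. The 3 comparisons share arrays, so these counts are not independent of each other. The count of 2 that fell at 8 h was 1 whichever of the 6 arrays was left out. From 8 h to 16 h the changed genes, 2834 in all, numbered 1482 and 1640 without replicate 1 or 2 of the 8 h group and 1577 and 1641 without replicate 1 or 2 of the 16 h group, and the changed probe sets, 4922 in all, numbered 2518, 2819, 2648 and 2784 in the same order. At 8 h against no hCG, 9167 probe sets changed, and 6109 without replicate 2 of the 8 h group. The count of 3 members that rose between 8 h and 16 h dropped to 1 when replicate 1 of the 8 h group, or either 16 h array, was left out.

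**Figure D1:**
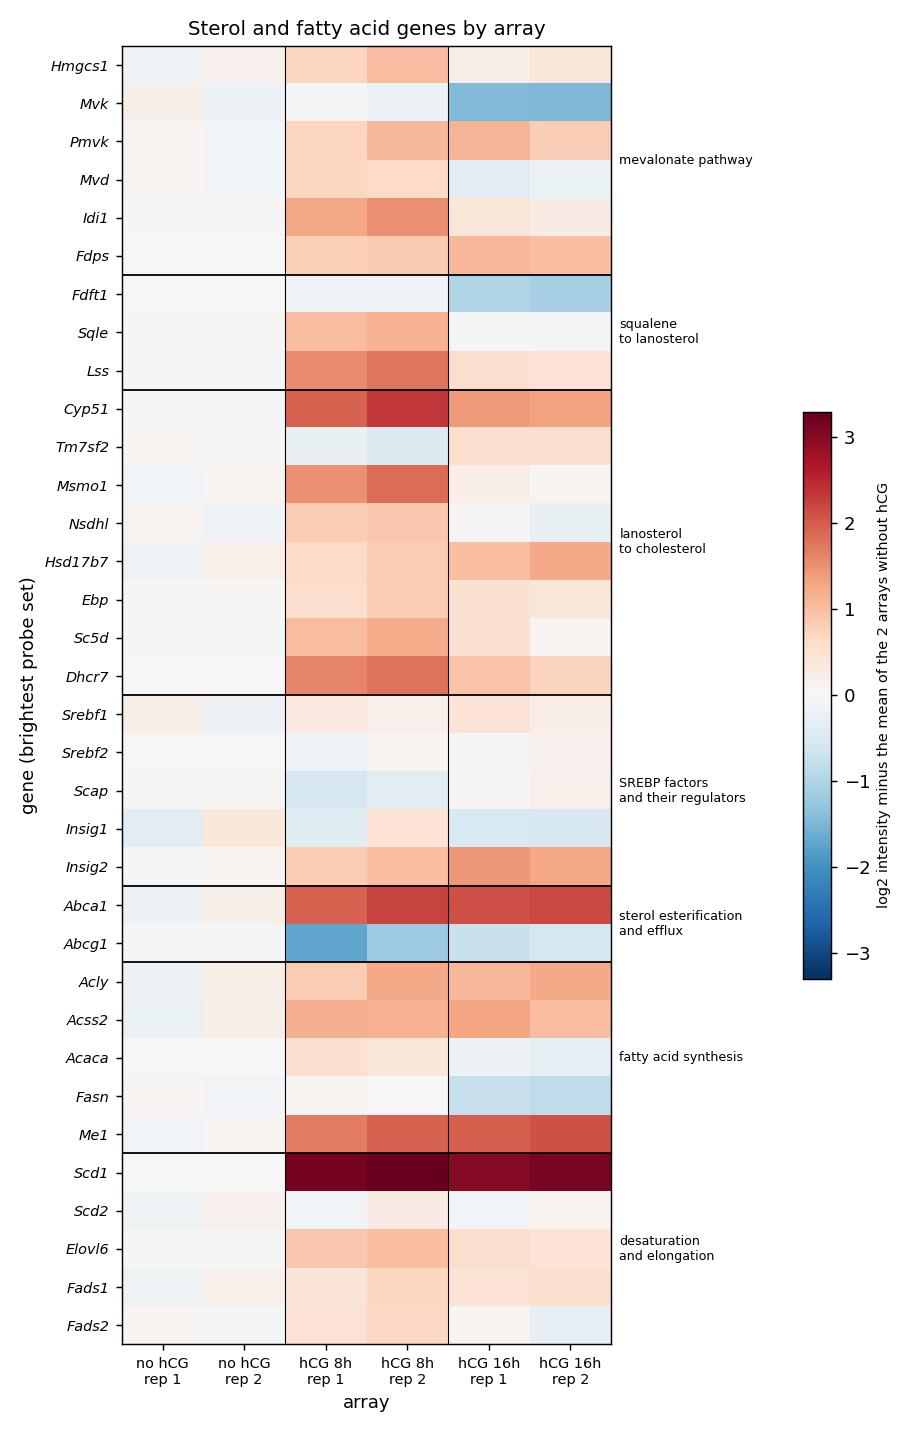
Each row is a gene by its brightest probe set, in pathway order with roles at the right, and each column an array; colour is the log2 intensity minus the mean of the 2 arrays without hCG. Most rows of the sterol route are red at 8 h and paler at 16 h, Scd1, Me1 and Abca1 are red at both times, and Mvk, Fdft1 and Fasn are blue at 16 h.

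The opening steps of the route, from acetyl-CoA to farnesyl diphosphate, rose at 8 h in 5 of 6 genes, and 3 fell afterwards. Over all tested genes, 16.9% rose at 8 h and 9.12% fell from 8 h to 16 h. Idi1, which isomerises isopentenyl diphosphate, read 10.98 and 11.06 without hCG, 12.30 and 12.52 at 8 h and 11.41 and 11.30 at 16 h. Both 8 h arrays were above the others, a rise of 1.40 ± 0.16 (2.63-fold, adjusted p = 0.000104) followed by a fall of 1.05 on the same scale (SE 0.16, adjusted p = 0.00136). Hmgcs1, the HMG-CoA synthase of the cytosol, read 12.79 and 13.07, then 13.65 and 13.95, then 13.15 and 13.30. It rose by 0.87 ± 0.18 (adjusted p = 0.00387), and all 5 of its probe sets rose. Its brightest probe set just missed the call between 8 h and 16 h (−0.57 ± 0.18, adjusted p = 0.0507), while the other 4 fell. Mvd, which forms isopentenyl diphosphate, rose by 0.68 ± 0.16 and fell between 8 h and 16 h (−0.97 ± 0.16, adjusted p = 0.00215), and its rise was not called without replicate 1 of the 8 h group.

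Pmvk and Fdps were not called between 8 h and 16 h. Pmvk, the phosphomevalonate kinase, read 9.05 and 8.85, then 9.66 and 10.03, then 10.07 and 9.75, so that the 8 h and 16 h arrays overlapped. Its rise of 0.90 ± 0.19 at 8 h (adjusted p = 0.00482) was not called without replicate 2 of the 8 h group, whereas at 16 h it was 0.96 ± 0.19 over no hCG (adjusted p = 0.00288). Fdps, the farnesyl diphosphate synthase, read 11.10 and 11.06, then 11.86 and 11.95, then 12.18 and 12.07, with changes of 0.82 ± 0.15 at 8 h and 1.04 ± 0.15 at 16 h (adjusted p = 0.00205 and 0.000429). Mvk, the mevalonate kinase one step before Pmvk, took another course. It read 10.61 and 10.24 without hCG, 10.36 and 10.24 at 8 h and 8.97 and 8.95 at 16 h. Without hCG and at 8 h the arrays overlapped (−0.13 ± 0.17, adjusted p = 0.635), and both 16 h arrays were lower, a fall of 1.47 from no hCG (2.77-fold, SE 0.17, adjusted p = 0.000114). The other probe set of Mvk gave the same calls.

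Of the 3 genes between farnesyl diphosphate and lanosterol, 2 rose at 8 h and all 3 fell afterwards. The shares over all tested genes were 16.9% and 9.12%. Fdft1, the squalene synthase that commits carbon to sterols, read 12.38 and 12.38, then 12.23 and 12.27, then 11.38 and 11.29. The change at 8 h was not called (−0.13 ± 0.15, adjusted p = 0.571), and at 16 h it was below no hCG by 2.06-fold (−1.05 ± 0.15, adjusted p = 0.000373). Of its 4 probe sets, the 2 brighter ones gave these calls and the other 2, at 6.26 or less, gave none. The oxygen-requiring squalene epoxidase gene Sqle read 11.33 and 11.42, then 12.39 and 12.52, then 11.30 and 11.32. It rose by 1.08 ± 0.15 (adjusted p = 0.000394) and fell by 1.14 after 8 h (SE 0.15, adjusted p = 0.000653), which put both 16 h arrays just below those without hCG (−0.06 ± 0.15, adjusted p = 0.787). Lss, the lanosterol synthase, read 9.55 and 9.48, then 11.07 and 11.29, then 10.09 and 9.99, a rise of 1.66 ± 0.16 (3.17-fold) and a later fall of 1.14 (SE 0.16). At 16 h it was 0.52 ± 0.16 above no hCG (adjusted p = 0.0251), a call lost without replicate 2 of the no hCG group and without either 16 h array. Its 2 other probe sets were not called in that comparison, and 1 of them was not called at 8 h either. Of all 3 probe sets, 2 fell between 8 h and 16 h and 1 was not called.

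Between lanosterol and cholesterol, 7 of 8 genes rose at 8 h, and 5 fell and 1 rose afterwards. Among all tested genes 16.9% rose at 8 h, and 9.12% fell and 11.8% rose afterwards. The 1 later rise is thus near the background. Cyp51, the demethylase that yields FF-MAS, rose at 8 h on all 3 of its probe sets. The brightest read 9.02 and 8.94 without hCG, 10.92 and 11.32 at 8 h and 10.39 and 10.30 at 16 h, a rise of 2.14 ± 0.17 (4.40-fold, adjusted p = 1.47e-05), and the others rose by 1.75 ± 0.18 and 1.16 ± 0.19. The 16 h arrays lay between the other groups, 1.36 ± 0.17 above no hCG (adjusted p = 0.000207). The other 2 probe sets were not called at 16 h against no hCG (0.20 ± 0.18 and −0.13 ± 0.19), so how much of the rise was left by 16 h differs between probe sets. The later fall of the brightest one (−0.78 ± 0.17) was not called without replicate 2 of the 8 h group or without either 16 h array.

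Tm7sf2, one of the reductases that take FF-MAS onward, ran the other way. It read 10.67 and 10.52, then 10.34 and 10.11, then 11.16 and 11.12. At 8 h both arrays were the lowest of the 6, without a call (−0.37 ± 0.16, adjusted p = 0.106), and it rose by 0.92 ± 0.16 from 8 h to 16 h (1.89-fold, adjusted p = 0.00320). Over no hCG it was higher by 0.55 ± 0.16 at 16 h (adjusted p = 0.0214), a call lost without replicate 2 of the no hCG group or without either 16 h array. Lbr, which encodes the other sterol reductase for that step and an anchor of the nuclear lamina, was not called at 8 h (−0.39 ± 0.16) and fell after it (−1.12 ± 0.16, adjusted p = 0.00108).

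**Figure D2:**
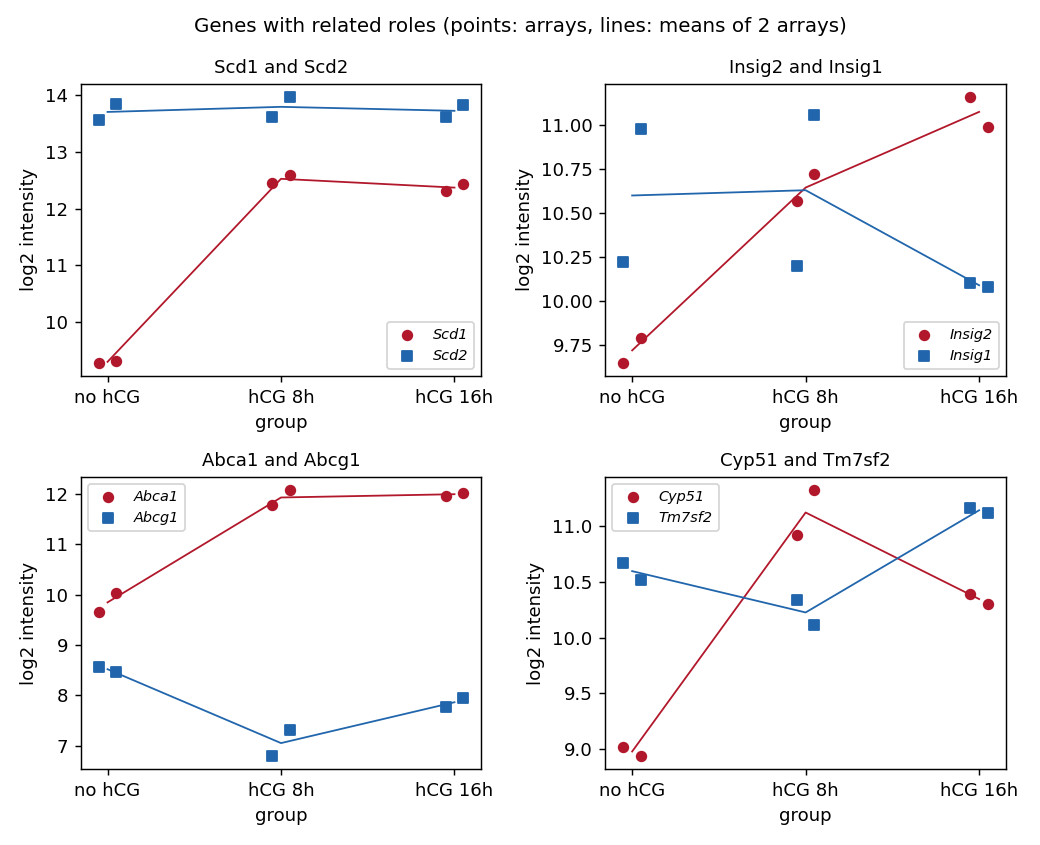
Log2 intensity of each array (points) and group means (lines) for pairs of genes with related roles; levels of different probe sets are not comparable, only their courses. Scd1, Insig2, Abca1 and Cyp51 are higher at 8 h on both arrays, while Scd2 and Insig1 overlap between no hCG and 8 h and Abcg1 and Tm7sf2 are lower there, Tm7sf2 without a call.

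The 3 demethylation genes that follow all rose at 8 h, and 2 of them fell afterwards, against 16.9% and 9.12% of all tested genes. Msmo1, the methylsterol monooxygenase, read 11.77 and 11.97, then 13.39 and 13.71, then 12.09 and 11.93, and rose by 1.67 ± 0.17 (3.19-fold, adjusted p = 5.95e-05). It fell after 8 h (−1.54 ± 0.17, adjusted p = 0.000274), and the 16 h arrays overlapped those without hCG. Nsdhl, the dehydrogenase that works beside it, read 11.16 and 10.92, then 11.89 and 11.94, then 11.09 and 10.79, with changes of 0.87 ± 0.17 and −0.97 ± 0.17 (adjusted p = 0.00315 and 0.00357). Hsd17b7, the keto-reductase that completes the removal of these methyl groups, was not called between 8 h and 16 h. It read 9.93 and 10.25, then 10.71 and 10.94, then 11.09 and 11.34, with 1.12 ± 0.18 over no hCG at 16 h (adjusted p = 0.000912). At 8 h its rise of 0.73 ± 0.18 was not called without replicate 1 of the no hCG group or without replicate 2 of the 8 h group. Its 2 other tested probe sets rose at both times.

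The last steps, which set the double bonds of cholesterol, all rose at 8 h, where 16.9% of all tested genes did. Dhcr7, which makes cholesterol from its immediate precursor, read 10.36 and 10.34, then 11.97 and 12.13, then 11.29 and 11.08. It rose by 1.70 ± 0.16 (3.24-fold, adjusted p = 3.03e-05), fell by 0.87 after 8 h (SE 0.16, adjusted p = 0.00426; not called without replicate 2 of the 8 h group) and was still 0.83 ± 0.16 above no hCG at 16 h. Sc5d, the lathosterol desaturase, read 10.71 and 10.64, then 11.69 and 11.89, then 11.17 and 10.77. Its rise was 1.11 ± 0.18 and its later change −0.82 ± 0.18, the second of which was not called without replicate 2 of the 8 h or of the 16 h group. Of its other probe sets 1 gave both calls, and was below no hCG at 16 h, and 1 gave none. Ebp, the sterol isomerase, read 10.29 and 10.37, then 10.92 and 11.18, then 10.83 and 10.74, and rose by 0.72 ± 0.16 (adjusted p = 0.00620; not called without replicate 2 of the 8 h group). Its 0.46 ± 0.16 at 16 h over no hCG (adjusted p = 0.0484) was not called whichever of the 6 arrays was left out.

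Of the 5 genes of the switch itself, 1 rose and 1 fell at 8 h. Both counts are near the background, as 16.9% of all tested genes rose and 20.5% fell. Srebf1 and Srebf2 encode the SREBP factors. Srebf1 read 10.68 and 10.31, then 10.81 and 10.66, then 10.95 and 10.72, and was not called in any comparison. The brightest probe set of Srebf2 read 9.45 and 9.50, then 9.32 and 9.54, then 9.40 and 9.61, and all 3 groups overlapped. Its other probe set read 7.94 and 8.18, then 9.19 and 9.33, then 9.06 and 8.83, and rose at 8 h by 1.20 ± 0.17 (adjusted p = 0.000420), with 0.89 ± 0.17 at 16 h (adjusted p = 0.00236). The 2 probe sets therefore disagree, and no direction is given for this gene. With the mean of both, the change at 8 h was 0.58 ± 0.14 and was called.

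Scap, the escort of the SREBP precursors, read 12.99 and 13.05, then 12.47 and 12.65, then 13.06 and 13.19, so that both 8 h arrays were the lowest. It fell at 8 h (−0.46 ± 0.15, adjusted p = 0.0447) and rose again (0.57 ± 0.15, adjusted p = 0.0309). The first call was lost whichever of the 6 arrays was left out, and the second without any 1 of the 8 h and 16 h arrays. The other probe set of Scap gave no call in any comparison. Insig2, a retention protein of SCAP, read 9.65 and 9.79, then 10.57 and 10.72, then 11.16 and 10.99. It rose by 0.93 ± 0.16 at 8 h (adjusted p = 0.00136) and stood 1.36 ± 0.16 above no hCG at 16 h (2.57-fold, adjusted p = 0.000109), with all 3 probe sets called higher in both comparisons. From 8 h to 16 h, 1 of these 3 rose, while the brightest was not called. Insig1, the retention protein gene that is itself a classical SREBP target, read 10.22 and 10.98, then 10.20 and 11.06, then 10.10 and 10.08. Its 2 arrays differed widely both without hCG and at 8 h, with replicate 2 higher, so the SE was 0.30 and changes of 0.03 at 8 h and −0.51 at 16 h were not called. The latter was called (a fall) without replicate 1 of the no hCG group.

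Both measured transporters that export sterol changed at 8 h, in opposite directions, where 37.4% of all tested genes changed either way. Abca1, which loads cholesterol onto lipid-poor apolipoprotein, read 9.65 and 10.04, then 11.78 and 12.07, then 11.96 and 12.02. It rose by 2.08 ± 0.18 (4.23-fold, adjusted p = 2.41e-05) and was 2.15 ± 0.18 above no hCG at 16 h. Abcg1, which passes cholesterol to mature particles, read 8.57 and 8.47, then 6.80 and 7.31, then 7.78 and 7.95. It fell by 1.47 (2.77-fold, SE 0.19, adjusted p = 0.000272), rose after 8 h (0.81 ± 0.19, adjusted p = 0.0163) and remained below no hCG at 16 h (−0.66 ± 0.19, adjusted p = 0.0229). The second call was lost without replicate 1 of the 8 h group or either 16 h array, the third without replicate 1 of the no hCG group or either 16 h array. Its other probe set, at 6.33 or less, gave no call. Both genes are known targets of the LXR receptors, of which Nr1h3 read 6.55 and 6.48, then 6.61 and 6.54, then 6.74 and 6.59, without a call. Its mean of 6.59 was not far above the dim limit of 5.62. The other LXR gene, Nr1h2, had no probe set that carried its symbol alone and was not measured.

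**Figure D3:**
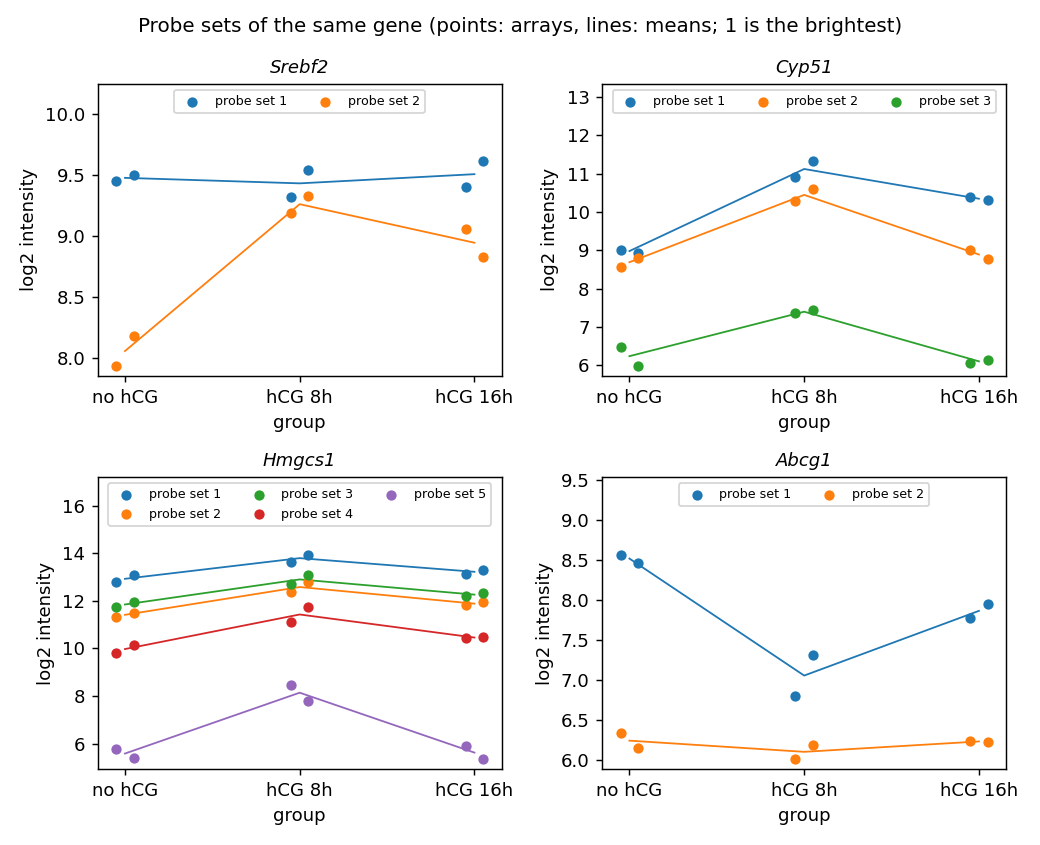
Log2 intensity on each array (points) and group means (lines) for each probe set of 4 genes whose probe sets gave different calls. The 5 probe sets of Hmgcs1 and the 3 of Cyp51 are all higher at 8 h, whereas those of Srebf2 and of Abcg1 part, with the brightest Srebf2 probe set flat and its second one higher by 1.20 at 8 h.

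The 3 genes that supply acetyl-CoA and NADPH for lipid synthesis rose at 8 h and were not called between 8 h and 16 h. Of all tested genes, 16.9% rose at 8 h. Me1, the malic enzyme that yields NADPH in the cytosol, read 11.24 and 11.42, then 13.02 and 13.27, then 13.31 and 13.44. That is a rise of 1.82 ± 0.16 at 8 h (3.53-fold, adjusted p = 2.60e-05) and of 2.05 ± 0.16 at 16 h over no hCG (4.13-fold, adjusted p = 9.99e-06). Acly, which splits citrate into acetyl-CoA, read 11.73 and 12.11, then 12.76 and 13.16, then 13.02 and 13.17, with 1.04 ± 0.20 and 1.18 ± 0.20 over no hCG. Acss2, which makes acetyl-CoA from acetate, read 7.68 and 8.14, then 9.08 and 9.06, then 9.22 and 8.94, with 1.16 ± 0.19 and 1.17 ± 0.19. For both genes the 8 h and 16 h arrays overlapped.

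The enzymes that turn acetyl-CoA into palmitate took other courses. Fasn, the fatty acid synthase, read 11.04 and 10.86, then 11.02 and 10.94, then 10.18 and 10.12. No change was called at 8 h (0.03 ± 0.15, adjusted p = 0.911), and at 16 h it was 1.75-fold lower than without hCG (−0.80 ± 0.15, adjusted p = 0.00245). Its fall from 8 h (−0.83 ± 0.15) was not called without replicate 1 of the 8 h group. Acaca, the acetyl-CoA carboxylase of the cytosol, read 9.99 and 9.96, then 10.50 and 10.35, then 9.78 and 9.65. Its rise of 0.45 ± 0.15 at 8 h (adjusted p = 0.0480) was not called whichever of the 6 arrays was left out, and its later fall (−0.71 ± 0.15, adjusted p = 0.0104) was not called without replicate 1 of the 8 h group or replicate 2 of the 16 h group. Acacb, the carboxylase at mitochondria whose product restrains fatty acid import, is no member of the list and fell at 8 h (−1.37 ± 0.15, adjusted p = 8.79e-05).

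Among desaturases and elongases, the largest change of all 34 genes was that of Scd1, the stearoyl-CoA desaturase. It read 9.28 and 9.31 without hCG, 12.45 and 12.60 at 8 h and 12.31 and 12.43 at 16 h. It rose 9.34-fold at 8 h (3.22 ± 0.15, adjusted p = 7.73e-07) and was 8.38-fold above no hCG at 16 h (3.07 ± 0.15, adjusted p = 6.28e-07). Its second probe set rose by 3.02 ± 0.18. Scd2, an enzyme of the same reaction whose gene lies 87.6 kb away on chromosome 19, read 13.57 and 13.84, then 13.62 and 13.97, then 13.62 and 13.83. All 3 groups of Scd2 overlapped, the change at 8 h was 0.09 ± 0.18 (adjusted p = 0.761), and none of its 3 probe sets was called in any comparison. The pair was set side by side after their values were seen, and the difference between them was not tested.

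Elovl6, which lengthens palmitate, read 11.51 and 11.45, then 12.37 and 12.48, then 12.06 and 11.92, and rose by 0.95 ± 0.15 at 8 h (adjusted p = 0.000965). At 16 h it was 0.51 ± 0.15 above no hCG, a call lost without replicate 2 of the no hCG group and without any 1 of the 8 h and 16 h arrays. Of its 2 other probe sets, 1 rose at 8 h and fell afterwards and 1 gave no call. Fads1 and Fads2, the desaturases of polyunsaturated fatty acids, lie 81.4 kb apart on chromosome 19. Fads1 read 10.75 and 11.10, then 11.35 and 11.64, then 11.37 and 11.46, and Fads2 read 9.05 and 8.91, then 9.46 and 9.66, then 9.06 and 8.72. Their rises at 8 h were alike in size, 0.57 ± 0.18 and 0.58 ± 0.17 (adjusted p = 0.0341 and 0.0278). Between 8 h and 16 h Fads2 fell (−0.67 ± 0.17, adjusted p = 0.0246), and Fads1 was not called (−0.08 ± 0.18, adjusted p = 0.841). The dimmer probe set of Fads1 was not called at 8 h (−0.16 ± 0.16). Of the 3 probe sets of Fads2, 2 rose at 8 h and 1 was not called. The rise of Fads1 was not called without replicate 1 of the no hCG group or any 1 of the 8 h and 16 h arrays. For Fads2 the rise was not called without replicate 2 of the no hCG group or either 8 h array, and the fall not without either 8 h array or replicate 2 of the 16 h group.

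**Figure D4:**
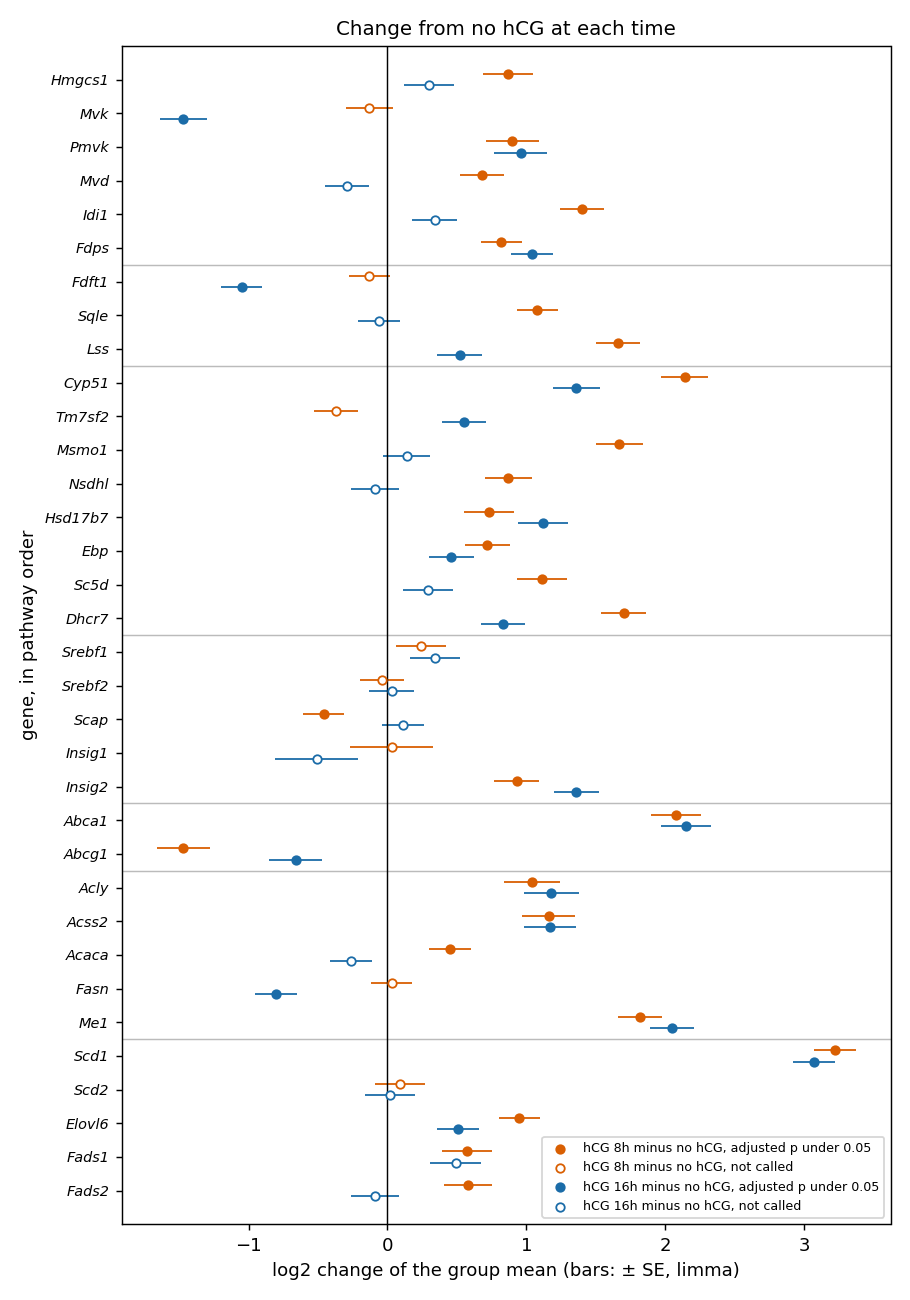
Log2 change from no hCG at 8 h (orange) and at 16 h (blue) for each gene in pathway order, with bars of ± SE and filled points where the adjusted p was under 0.05. Both points of Scd1 lie beyond 3, Mvk, Fdft1 and Fasn have a 16 h point below 0 with an uncalled 8 h point, and the 16 h points of Sqle, Msmo1 and Nsdhl lie near 0.

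Set side by side, the calls of the 3 comparisons gave a few courses. Mvd, Idi1, Sqle, Msmo1, Nsdhl, Sc5d, Acaca and Fads2, 8 genes in all, rose at 8 h, fell afterwards and were not called at 16 h against no hCG. Lss, Cyp51 and Dhcr7 rose, fell and were still above no hCG. The largest set, 11 genes, rose at 8 h, was not called afterwards and was above no hCG at 16 h: Pmvk, Fdps, Hsd17b7, Ebp, Insig2, Abca1, Acly, Acss2, Me1, Scd1 and Elovl6. Mvk, Fdft1 and Fasn were not called at 8 h and were lower at 16 h than in both other groups. Srebf1, Insig1 and Scd2 were called in no comparison, as was the brightest probe set of Srebf2. By group mean, 19 of 34 genes were highest at 8 h, 12 at 16 h and 3 without hCG. The courses and highest groups of all tested genes were not counted. These counts therefore do not show whether a course is particular to the list. Arrays of the 2 groups did not overlap for 28 of 34 genes at 8 h against no hCG, for 26 at 16 h against 8 h and for 29 at 16 h against no hCG, where 67.5%, 61.8% and 69.1% of all tested genes did not overlap.

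A list of 68 other genes of these pathways, of which 60 were named on the array and 55 tested, was counted beside the members. At 8 h 20 rose and 10 fell, where 16.9% and 20.5% of all tested genes did. From 8 h to 16 h 12 rose and 5 fell, against 11.8% and 9.12%, and at 16 h against no hCG 24 rose and 12 fell, against 20.8% and 20.8%. The falls were thus near the background in all 3 comparisons. The median changes were 0.16, 0.10 and 0.31, against −0.02, 0.01 and −0.02 over all tested genes. The rises at 8 h were led by Acsl4, a ligase that activates arachidonic acid (2.81 ± 0.29), and by the lipoprotein receptor genes Vldlr and Lrp8 (1.84 ± 0.16 and 1.70 ± 0.16). Vldlr read 9.77 and 10.01, then 11.72 and 11.73, then 11.52 and 11.59, whereas Lrp8 read 9.66 and 9.93, then 11.44 and 11.55, then 9.52 and 9.39. Lrp8 thus fell after 8 h (−2.04 ± 0.16, adjusted p = 3.81e-05) and its 16 h arrays were the lowest. The largest falls at 8 h were those of Mlxipl, which encodes the carbohydrate-responsive activator ChREBP (−1.65 ± 0.21), Nceh1, a cholesterol ester hydrolase (−1.53 ± 0.24), and Acacb.

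After 8 h the largest rises among these other genes were those of Mylip, an LXR-induced ubiquitin ligase for lipoprotein receptors (1.18 ± 0.16), Acsl5 (0.96 ± 0.16) and the SREBP protease gene Mbtps2 (0.92 ± 0.24). Beside Lrp8 and Lbr, the triglyceride synthesis gene Dgat2 fell (−1.17 ± 0.16). At 16 h against no hCG, Acsl4 (3.06 ± 0.29), Cpt1a, which admits fatty acids to mitochondria (2.47 ± 0.17), and Acsl5 (1.97 ± 0.16) were the most raised. Mid1ip1, an activator of acetyl-CoA carboxylase (−1.99 ± 0.19), Acacb (−1.79 ± 0.15) and Dgat2 (−1.76 ± 0.16) were the most lowered. Of 9 tested fatty acid oxidation genes 5 rose and 1 fell at 8 h, and 6 rose at 16 h against no hCG. Over all tested genes, 16.9% rose and 20.5% fell at 8 h, and 20.8% rose at 16 h against no hCG. Cpt1a read 9.51 and 9.88, then 11.33 and 11.43, then 12.09 and 12.23, a step upward in each interval by the calls. Of 4 tested genes of NADPH supply, 3 were higher at 16 h than without hCG, where 20.8% of all tested genes were. Idh1 was among the 3 (1.94 ± 0.22, adjusted p = 8.24e-05).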

How the data were processed

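Arrays were grouped by their titles into 3 groups of 2. The authors deposited 1 log2 intensity per probe set and array; that scale was inferred from the range of the values, and the sources used here do not name software, background correction or normalization. The values were used as they stood. Of 45101 probe sets, 64 controls were left out. Symbols came from the platform annotation, and 34741 of 34945 probe sets with 1 symbol matched a RefSeq gene number. Probe sets with a mean under the 40th percentile (5.62) were called dim and left out, since no detection calls were used, so low values may understate changes; 27022 remained. Group means of all 6 arrays were fitted with limma 3.58.1 in R 4.3.3 (lmFit, eBayes; 3 residual and 6.43 prior degrees of freedom), with two-sided tests and Benjamini-Hochberg adjustment per comparison. The fit was tested on simulated data. The number of arrays limits the precision. The gene list, its roles, the other pathway genes and the marker lists were chosen with earlier results of these data known. All measured members are named; of other pathway genes, the 3 highest and 3 lowest called changes per comparison, plus Nr1h3 and Idh1, chosen after their values were seen.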

Additional observations from a re-analysis of the deposited data

How the results depend on the processing

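Of the 24 rises at 8 h, 17 kept their call under every alternative tried and 7 lost it in some; for the 14 falls between 8 h and 16 h these counts were 8 and 6, and for the 15 rises at 16 h against no hCG 11 and 4. Srebf2 turned from −0.04 to 0.58 at 8 h with the mean of its probe sets, because its other probe set rose; no called change of a member reversed under any alternative tried. The 2 genes that fell at 8 h became 1 after median centring and 1 when the fit left out the arrays at 16 h, as Scap was lost. Leaving out 1 array in turn leaves a group with 1 array, which is assumed to vary like the others, and fewer samples. Over these fits the members that rose at 8 h numbered 18 to 22 and those that fell 1 to 1; from 8 h to 16 h, 1 to 3 rose and 10 to 15 fell; at 16 h against no hCG, 11 to 14 rose and 3 to 4 fell. Changed probe sets numbered 6109 to 9450, 2518 to 6340 and 7312 to 10345 in the 3 comparisons (9167, 4922 and 10072 with all arrays), and changed genes 3498 to 5077, 1482 to 3542 and 4183 to 5649 (5069, 2834 and 5643). Quantile normalization, no dim filter, a dim filter at the 60th percentile and an intensity trend kept each of these counts within 1.5 times. So did leaving out probe sets whose names end in _a_at, _s_at or _x_at, which left no probe set for Pmvk or Srebf1. Nothing in the labels says that a replicate number is shared between groups, so the main fit took no pairs. Deviations of replicate 1 from its group mean correlated at 0.38 between no hCG and 8 h. The correlations with 16 h were −0.06 for no hCG and 0.11 for 8 h. With the replicate block, 10117 probe sets changed at 8 h, and 24 members rose. The fall of Hmgcs1 after 8 h was then called (−0.57 ± 0.14, adjusted p = 0.0220, changes of −1.08 to −0.42 over its 15 alternatives). So was the rise of Fads1 at 16 h against no hCG (0.49 ± 0.15, adjusted p = 0.0267, 0.10 to 0.67 over the alternatives). Neither call was particular to the block. That of Hmgcs1 was also made with quantile normalization, the 60th percentile filter, the mean of its probe sets and an intensity trend. It was not made with median centring or no dim filter. That of Fads1 was also made with median centring, the 60th percentile filter and an intensity trend, but not with quantile normalization.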
